A study of Mus musculus with 18 samples.

Results

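The transcripts described here are those encoded in the mitochondrial genome, taken as every gene of the deposited expression table whose name starts with mt-. They number 37 of 44349 genes: 13 code for proteins, 2 are ribosomal RNAs and 22 are transfer RNAs. Mitochondrial DNA is a small circle that is transcribed from both strands as long precursors, which are cut into single RNAs largely at the transfer RNAs that lie between the other genes. All of its proteins are subunits of the respiratory complexes I, III and IV or of the ATP synthase (complex V), and the remaining subunits come from nuclear genes. Long-term haematopoietic stem cells (LT-HSC), the blood stem cells that can refill the marrow for life, are known for relying more on glycolysis than on respiration.

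RNA was sequenced from LT-HSC sorted from mouse bone marrow, in 18 libraries that form 6 groups of 3. The design text gives the sort gate as Lineage-, Sca-1+ and c-Kit+, with CD34-, Flk2- and CD49blo, and the genotypes as wild type and knockout of DERARE, an enhancer of the Hoxb gene cluster that responds to retinoic acid. KO Reserve libraries come from knockout reserve cells (genotype label "wild type reserve ko") and WT Reserve libraries from wild-type reserve cells. KO Ctrl libraries are knockout controls (genotype label "knockout wt control"), KO Wnt5a libraries are knockout cells with the Wnt5a label, described as a rescue, Wnt5a libraries carry the Wnt5a label alone, and WT libraries are wild type. Wnt5a is a secreted protein that acts mainly through noncanonical Wnt pathways, and the labels give neither its route nor its dose, nor the age, sex or strain of the mice. They also leave unsaid whether replicates are different animals, so the spread that p-values rest on may be technical.

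The unit is FPKM, in which fragment counts are divided by transcript length and library depth, and the steps between low values imply 23250000 to 46530000 fragments per library. The columns of the 6 reserve libraries carry another prefix in the table's header than those of the other 12, so the reserve label and any separate handling of that set cannot be told apart. The summed FPKM of 10 LT-HSC markers was 80.6 to 82.5 in KO Reserve and 256 to 371 in WT Reserve, against 279 to 427 in the other 12 libraries. Transcripts of some other blood cells were high in the reserve set. The sum over 8 granulocyte markers was 2447 to 3664 in KO Reserve and 4590 to 10500 in WT Reserve, against 5.07 to 99.97 elsewhere. That over 12 erythroid markers was 7350 to 7896 and 4291 to 6027, against 114.2 to 238.6 elsewhere. That over 5 monocyte and macrophage markers was, as a sum, high only in WT Reserve, at 642.3 to 867.3. It was 109.5 to 162.5 in KO Reserve and 104.7 to 154.2 elsewhere. The sum hides part of its members: of 4 tested with limma, 2 were higher and 0 lower in KO Reserve against KO Ctrl. In WT Reserve against WT 4 were higher and 0 lower. The sum over 8 platelet and megakaryocyte markers was 90.9 to 142 in KO Reserve and 232 to 256 in WT Reserve, against 7374 to 30960 in the other 12. The sum over 6 B lymphoid markers was 1532 to 1863 in KO Reserve and 2007 to 2364 in WT Reserve, against 27.4 to 68.8 elsewhere. That over 5 RNAs retained in the nucleus was 6626 to 7965 and 7229 to 10180, against 1580 to 3359 elsewhere. Its members differed in direction: of 4 tested with limma, 2 were higher and 1, Neat1, lower in each reserve group. For Neat1 the log2 fold change was -1.17 in WT Reserve against WT and -1.92 in KO Reserve against KO Ctrl. The part of these cells and RNAs in the results below was not tested.

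Several mitochondrial genes have near-identical copies in the nuclear genome, and 4 transcripts and 1 such copy are printed here because their levels turn on length, overlap or identity. The sequences come from GENCODE M21 transcripts on GRCm38. In mt-Atp8 the capitals mark the 43 bases it shares with mt-Atp6, which starts before mt-Atp8 ends. In mt-Nd3 and its copy Gm28438 (chr1:24613060-24613119, minus strand, for the stretch shown) the first 60 bases are shown, where the capital marks the 1 base that differs, T3C, counted from 1 at the 5′ end with the base of mt-Nd3 first. In the transfer RNAs for serine, mt-Ts1 and mt-Ts2, the capitals mark the anticodon.
mt-Atp8 (chrMT:7766-7969, plus strand): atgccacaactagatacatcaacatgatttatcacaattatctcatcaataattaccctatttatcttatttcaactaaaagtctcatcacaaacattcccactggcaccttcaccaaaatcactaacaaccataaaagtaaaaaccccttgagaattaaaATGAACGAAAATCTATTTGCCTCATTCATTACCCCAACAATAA
mt-Nd3 (chrMT:9459-9518, plus strand): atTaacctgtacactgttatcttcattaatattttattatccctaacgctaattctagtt
Gm28438: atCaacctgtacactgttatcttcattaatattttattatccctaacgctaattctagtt
mt-Ts1 (chrMT:6870-6938, minus strand): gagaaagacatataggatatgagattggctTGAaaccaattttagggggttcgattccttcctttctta
mt-Ts2 (chrMT:11613-11671, plus strand): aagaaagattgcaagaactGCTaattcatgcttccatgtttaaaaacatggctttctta

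The coding transcripts fell into 2 ranges of level. The 8 genes mt-Atp8, mt-Nd1, mt-Cytb, mt-Co1, mt-Nd6, mt-Nd2, mt-Nd4 and mt-Nd5 ran from 446 to 21145 FPKM across the 18 libraries. The other 5, mt-Atp6, mt-Nd3, mt-Nd4l, mt-Co3 and mt-Co2, ran from 0 to 138 FPKM. These 5 are the coding genes with an annotated nuclear copy of at least 99% identity over at least 95% of their length. The copies lie on the minus strand of chromosome 1: Gm10925 matches mt-Atp6 over 678 of 681 bases, Gm28661 matches mt-Co2 over 681 of 684, Gm28437 matches mt-Co3 over 783 of 784 and Gm10222 matches mt-Nd4l over 294 of 297, all with 0 mismatches, and Gm28438 matches mt-Nd3 over 345 of 348 bases with 1.

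The copies themselves were listed at 0 to 0.783 FPKM. How reads that match both places were assigned is not given in the sources used here, so the levels of the 5 genes are uncertain. Copies also cover parts of other genes. The first 876 of the 1378 bases of mt-Nd4 are identical to Gm28439, and the last 483 of the 1545 bases of mt-Co1 match Gm29216 at 99.8%. The whole of mt-Co1 matches Gm13340 on chromosome 2 at 97.6%, and 510 bases of mt-Nd2 match Gm13339 on the same chromosome at 96.7%.

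**Figure D1:**
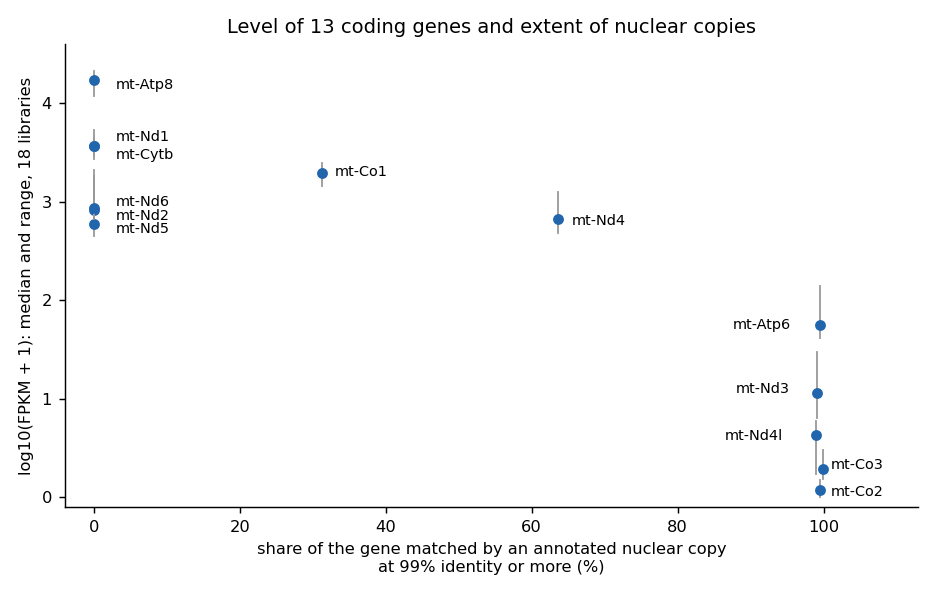
Median (point) and range over 18 libraries (line) of log10(FPKM + 1) for each of the 13 coding genes, against the share of the gene in percent that an annotated nuclear transcript matches at 99% identity or more. The 5 genes matched over 95% or more of their length lie below the 8 others, which include mt-Co1 (31.3% matched) and mt-Nd4 (63.6%).

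The ends of the order of coding transcripts were the same in every library. mt-Atp8, a small subunit of the ATP synthase, was the highest by FPKM in 18 of 18 libraries and mt-Co2, a catalytic subunit of cytochrome c oxidase (complex IV), the lowest in 18 of 18. FPKM is scaled to length, and the place of mt-Atp8 rests on that scaling. At 204 bases its effective length, the number of places where a fragment of the assumed size can start, was 29.9, against 940 for mt-Cytb. mt-Atp8 thus stood on 13440 to 22010 implied fragments per library and mt-Cytb, the cytochrome b of complex III, on 84240 to 152100. mt-Atp6, the membrane subunit through which protons pass in the ATP synthase, is read from the same messenger RNA as mt-Atp8, yet the FPKM of mt-Atp8 was 105 to 349 times that of mt-Atp6.

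Below mt-Atp8 followed mt-Nd1, a core subunit of NADH dehydrogenase (complex I), at 2986 to 5337 FPKM, and mt-Cytb at 2724 to 4390. The ranges of these neighbours overlap. mt-Co1, the main catalytic subunit of complex IV, ran from 1441 to 2487 FPKM, which overlaps the ranges of mt-Nd6 and mt-Nd2, and it lay below both in KO Reserve replicate 3. mt-Nd6 (669.7 to 2117), mt-Nd2 (629 to 1839), mt-Nd4 (481 to 1258) and mt-Nd5 (446 to 752), all subunits of complex I, overlapped in their ranges. mt-Nd6 is the only coding gene on the minus strand and overlaps the end of mt-Nd5, and these libraries keep no strand information, so reads from the shared bases cannot be told apart.

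mt-Co2 did not pass the filter on low values, at least 1 FPKM in at least 3 libraries, which the other 36 members passed. Its level rests on 0 to 6 implied fragments per library. The 3 libraries together held 14 fragments in KO Reserve, 13 in WT Reserve, 10 in KO Ctrl, 4 in KO Wnt5a, 4 in Wnt5a and 12 in WT. The exact Poisson 95% intervals of these sums, not scaled for depth, overlap, from 7.65 to 23.5 in KO Reserve down to 1.09 to 10.2 in KO Wnt5a. Depth differed, at 23250000 to 33050000 implied fragments per library in KO Reserve and 39420000 to 42100000 in KO Wnt5a. The overlap of raw sums therefore does not compare levels. In FPKM mt-Co2 was at 0.359, 0.379 and 0.27 in KO Reserve and 0, 0.053 and 0.153 in KO Wnt5a, which was not tested. The Poisson intervals cover counting error only, since amplified fragments are not independent molecules. mt-Co3, another catalytic-core subunit of complex IV, stood on 13 to 39 fragments per library and mt-Nd4l, a small subunit of complex I, on 3 to 17, so both are imprecise too.

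**Figure D2:**
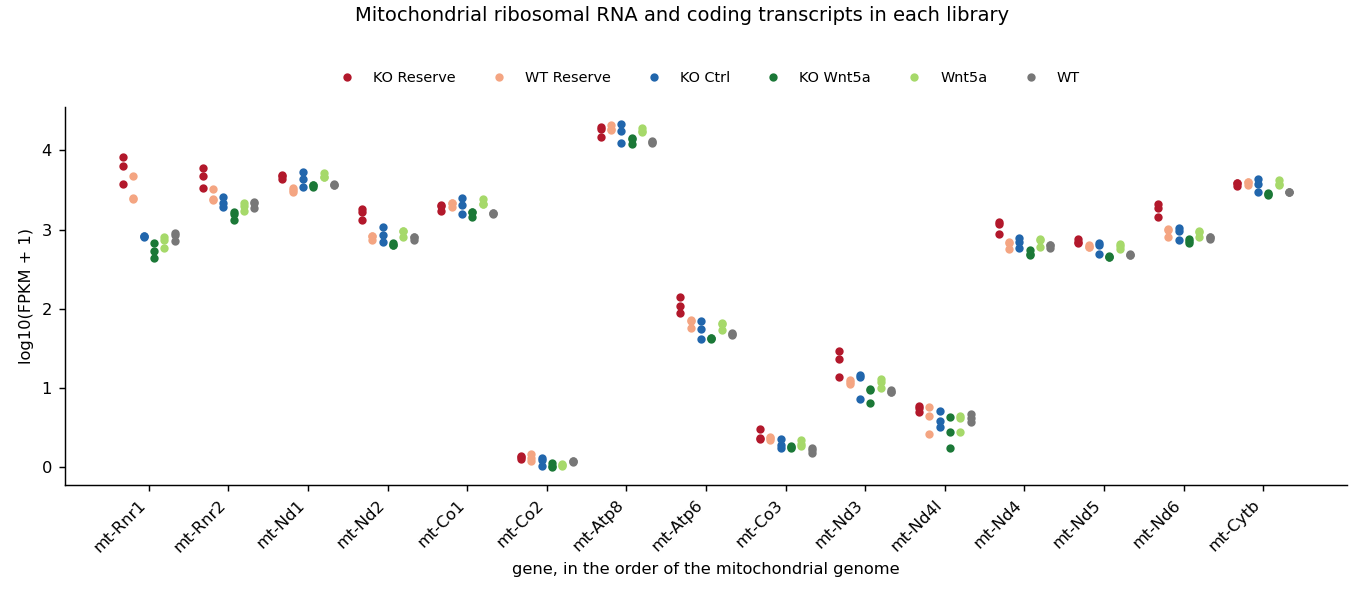
log10(FPKM + 1) of both ribosomal RNAs and the 13 coding genes in each of 18 libraries, in genome order and coloured by group. mt-Rnr1 lies higher in the 6 reserve libraries than in the other 12, and mt-Co2 lies at or near 0 in all 18.

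The ribosomal RNAs mt-Rnr1 (12S, small subunit of the mitochondrial ribosome) and mt-Rnr2 (16S, large subunit) ran from 430.3 to 8145 FPKM. Among transfer RNAs, mt-Ts1 alone was listed at 482199 to 2826460 FPKM, which is 32.0% to 71.3% of all FPKM in a library. The 69-base sequence printed above is shorter than nearly every fragment assumed by the scaling, so its effective length is 0.234 bases and 1 fragment was worth 91.8 to 183.7 FPKM at that length. In implied fragments mt-Ts1 had 2762 to 20450 per library, and all 22 transfer RNAs together made up 0.0154% to 0.0705% of fragments. Effective lengths of the transfer RNAs ran from 0.0618 bases for mt-Ts2 to 0.402 for mt-Tl1. Whether their fragments, here and below, come from mature transfer RNAs or from longer precursors was not tested. mt-Ts2, the other serine transfer RNA, had 0 to 2 fragments per library and mt-Th, the histidine transfer RNA, 0 to 8. In fragments the 13 coding genes made up 0.959% to 1.54% of a library and the ribosomal RNAs 0.215% to 1.436%. The last 3 bases of mt-Co1 are also the last 3 of mt-Ts1 on the opposite strand.

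**Figure D3:**
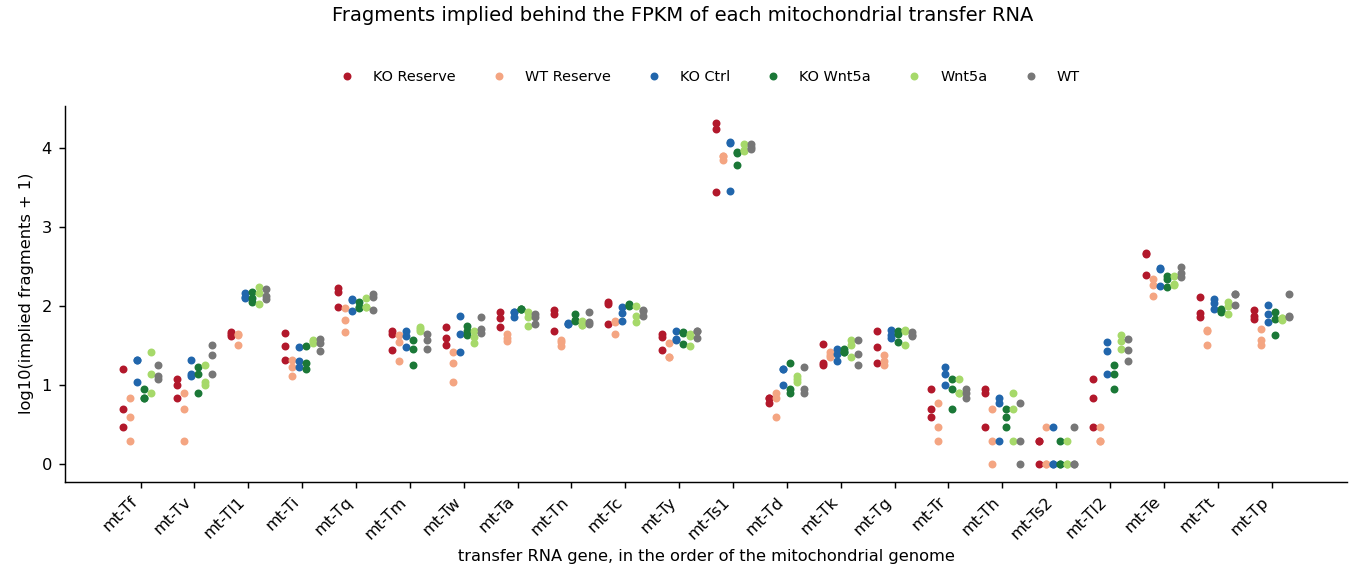
log10(implied fragments + 1) behind the FPKM of each of the 22 mitochondrial transfer RNAs, in genome order, for 18 libraries coloured by group. mt-Ts1 stands on 2762 to 20450 fragments per library and mt-Ts2 on 0 to 2. mt-Tl2 has 2 to 11 in KO Reserve and 1 to 2 in WT Reserve, against 8 to 42 in the other 12. Fragments are not scaled for depth, which differs between libraries.

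KO Reserve against WT Reserve asks how loss of DERARE goes with transcript levels in reserve cells. Of 12 coding genes tested, 6 were higher in KO Reserve and 0 were lower with limma at a Benjamini-Hochberg adjusted p below 0.05, where 41.3% of all genes tested were called, 12.0% higher and 29.3% lower. In bulk samples, fewer cells of a type and less RNA per cell cannot be told apart. The median log2 fold change was 0.50 over the 12 genes and -0.17 over all 14285 genes tested, so levels are best read relative to that shift. Log2 fold changes are on the log2(FPKM + 1) scale, which understates changes of low genes. In the same comparison 0 of 10 LT-HSC markers were higher and 9 lower, and 6 of 11 tested erythroid markers were higher and 1 lower. Of 8 granulocyte markers 6 were lower and of 4 tested monocyte markers 4 were lower; their part in these results was not tested.

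Most of the coding genes called were complex I subunits. mt-Nd2 (ENSMUSG00000064345, chrMT:3914-4951, plus strand) was at 1303, 1655 and 1839 FPKM in KO Reserve, against 824, 828 and 732 in WT Reserve. mt-Nd6 (ENSMUSG00000064368, chrMT:13552-14070, minus strand) was at 1427, 1867 and 2117 FPKM in KO Reserve, against 993, 1004 and 796 in WT Reserve. Each KO Reserve library lay above each WT Reserve library for both genes, and KO Reserve replicate 1 was the lowest of its group. The log2 fold change was 1.0 ± 0.14 (SE) for mt-Nd2 and 0.94 ± 0.14 for mt-Nd6, with limma's adjusted p = 2.8e-05 and 5.92e-05. With quantile normalization, which gives genes of equal rank the same value, both stayed called at 0.63 and 0.61.

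mt-Nd4 was at 887, 1170 and 1258 FPKM in KO Reserve, against 698, 682 and 567 in WT Reserve. Of its 1378 bases, 876 are identical to the nuclear copy Gm28439, so its level also depends on how shared reads were assigned. mt-Nd1 was at 4328, 4733 and 4924 FPKM in KO Reserve, against 3140, 3360 and 2986 in WT Reserve. Neither gene's groups overlapped, and the log2 fold changes were 0.76 ± 0.13 for mt-Nd4 and 0.56 ± 0.11 for mt-Nd1 (limma, adjusted p = 0.000281 and 0.000845). Quantile normalization gave 0.41 for mt-Nd4, still called. mt-Nd5 also did not overlap, at 675, 752 and 702 FPKM in KO Reserve and 631, 595 and 604 in WT Reserve, but did not pass the test (0.22 ± 0.10, limma, adjusted p = 0.0897) and was at -0.04 with quantile normalization. Of the 13 coding genes, 7 had every KO Reserve library above every WT Reserve library, a pattern held by 14.0% of all genes tested; 44.7% did not overlap in either direction.

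Of the genes with near-identical nuclear copies over most of their length, mt-Atp6 was at 87.6, 107 and 138 FPKM in KO Reserve, against 69.2, 71.0 and 56.4 in WT Reserve (0.73 ± 0.17, limma, adjusted p = 0.00238). mt-Nd3, a complex I subunit, was at 12.8, 22.4 and 28.6 FPKM in KO Reserve, against 11.7, 10.9 and 10.2 in WT Reserve (0.84 ± 0.27, limma, adjusted p = 0.0190). Both were higher in each KO Reserve library, and mt-Nd3 stood on 43 to 128 implied fragments per library in KO Reserve and 38 to 50 in WT Reserve. The call of mt-Nd3 was lost without KO Reserve replicate 2 (limma, adjusted p = 0.0645), without KO Reserve replicate 3 (0.115) and without WT Reserve replicate 3 (0.0552). mt-Co3 (0.13 ± 0.15) and mt-Nd4l (0.45 ± 0.31) did not pass.

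The main transcripts of complexes III, IV and V did not pass the test. mt-Co1 was at 2026, 1983 and 1708 FPKM in KO Reserve, against 2129, 2171 and 1940 in WT Reserve. mt-Cytb was at 3856, 3869 and 3527 FPKM in KO Reserve, against 4021, 3991 and 3692 in WT Reserve. The groups overlapped for both, as they did for mt-Atp8, and the log2 fold changes were -0.13 ± 0.13, -0.06 ± 0.10 and -0.12 ± 0.15 (limma, adjusted p = 0.443 for mt-Co1, 0.696 for mt-Cytb and 0.547 for mt-Atp8). The scaling decides their sign. With median-ratio scaling the 3 values were 0.09, 0.16 and 0.09, and with quantile normalization mt-Co1 and mt-Cytb were called lower at -0.40 and -0.38 (limma, adjusted p = 0.0319 and 0.0281).

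**Figure D4:**
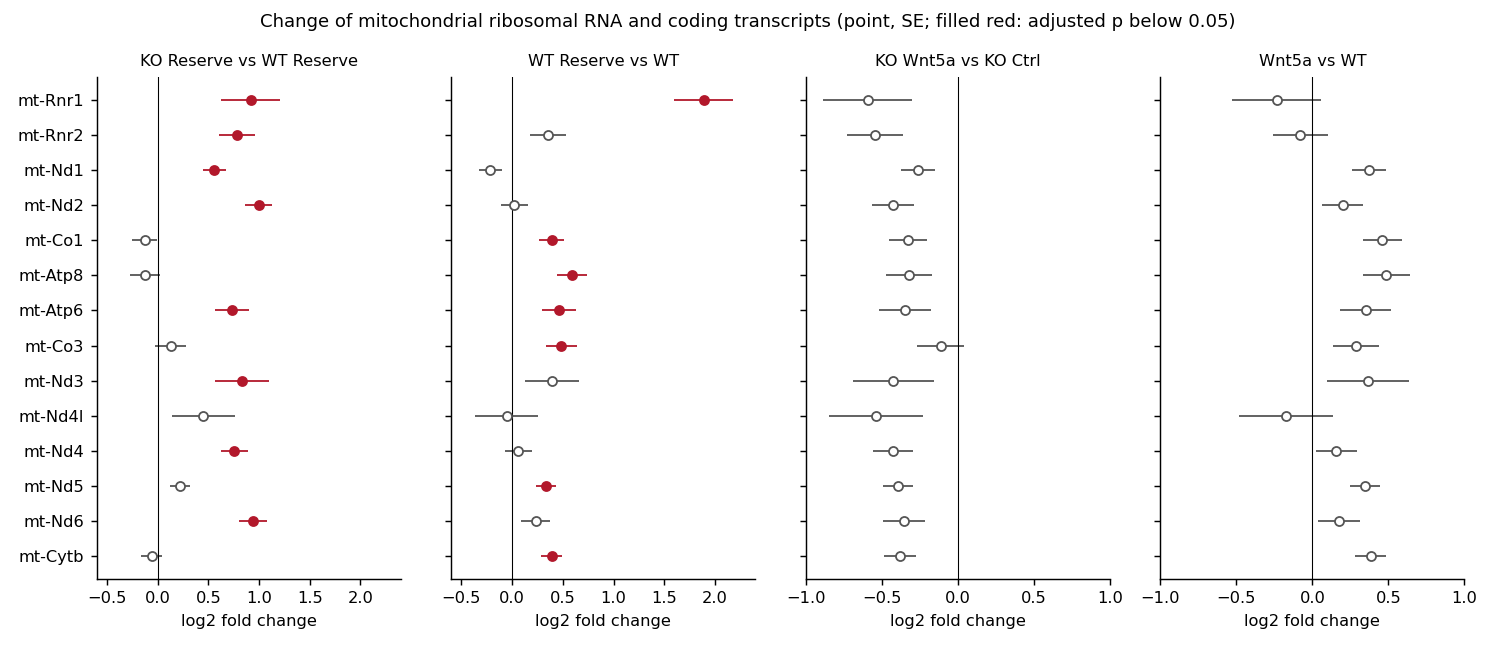
Log2 fold change (point) and its SE (line) of both ribosomal RNAs and the 12 tested coding genes in 4 comparisons; filled red marks limma's adjusted p below 0.05. In KO Reserve against WT Reserve mt-Nd2 reaches 1.0 while mt-Co1 is at -0.13; in KO Wnt5a against KO Ctrl all points lie below 0 and 0 coding genes are called.

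A ratio of 2 transcripts within a library does not depend on the scaling of that library. These ratios were chosen after the values were seen and are given as description. mt-Nd2 to mt-Co1 was 0.643, 0.835 and 1.08 in KO Reserve and 0.387, 0.382 and 0.377 in WT Reserve, and 0.378 to 0.515 in the other 12 libraries. mt-Nd6 to mt-Co1 was 0.704 to 1.24 in KO Reserve and 0.410 to 0.466 in WT Reserve, and 0.386 to 0.525 elsewhere. KO Reserve lies above all other libraries in both ratios. mt-Cytb to mt-Co1 varied little, at 1.90 to 2.06 in KO Reserve, 1.84 to 1.90 in WT Reserve and 1.70 to 1.92 elsewhere. mt-Atp8 to mt-Atp6 was 105 to 225 in KO Reserve and 253 to 329 in WT Reserve, and 260 to 349 in the other 12.

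Both ribosomal RNAs were higher in KO Reserve. mt-Rnr2 was at 3347, 4729 and 5989 FPKM in KO Reserve, against 2415, 3232 and 2384 in WT Reserve, with no overlap (0.78 ± 0.18, limma, adjusted p = 0.00297). mt-Rnr1 was at 3701, 6377 and 8145 FPKM in KO Reserve, against 2502, 4717 and 2407 in WT Reserve (0.92 ± 0.29, limma, adjusted p = 0.0222). Its groups overlapped, since WT Reserve replicate 2 lay above KO Reserve replicate 1.

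Of the 22 transfer RNAs, 10 were higher in KO Reserve and 0 were lower, where 12.0% of all genes were called higher and 29.3% lower. The 10 were 6 of the 8 on the minus strand and 4 of the 14 on the plus strand. mt-Te, the glutamate transfer RNA that lies beside mt-Nd6 on the minus strand, had 249, 456 and 467 implied fragments in KO Reserve and 220, 181 and 131 in WT Reserve. Its log2 fold change was 1.03 ± 0.15 (limma, adjusted p = 4.6e-05). Quantile normalization gave 0.00 and no call. A gene that keeps its rank in all libraries compared gets 0.00 by construction, so this setting cannot decide on mt-Te. mt-Tt (1.05), mt-Tn (0.97), mt-Tq (0.94), mt-Tp (0.90), mt-Ti (0.85), mt-Ta (0.70) and mt-Tc (0.61), the transfer RNAs for threonine, asparagine, glutamine, proline, isoleucine, alanine and cysteine, were also called, as were mt-Tw for tryptophan (1.19) and mt-Tl2 for leucine (1.92). Quantile normalization also ended the calls of mt-Ti (0.69, limma, adjusted p = 0.102) and mt-Tp (0.70, 0.126) and kept the other 7. mt-Tl2 rested on 2 to 11 fragments per library in KO Reserve and 1 to 2 in WT Reserve. mt-Ts1 did not pass (0.30 ± 0.51, limma, adjusted p = 0.675), with 2762, 17000 and 20450 fragments in KO Reserve against 7867, 7002 and 7814 in WT Reserve.

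**Figure D5:**
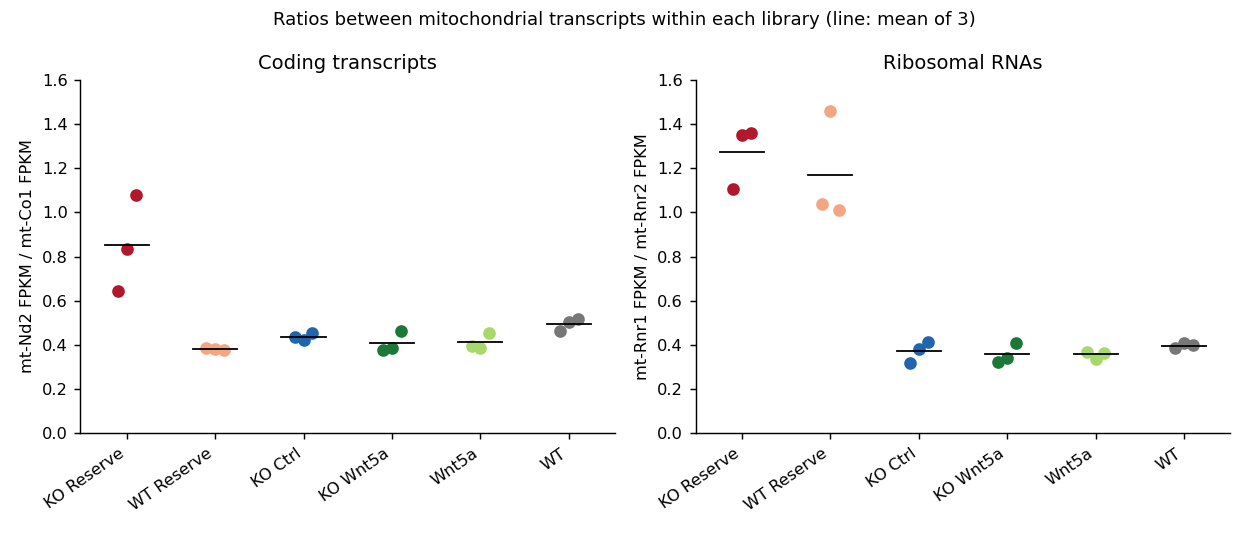
Ratio of mt-Nd2 to mt-Co1 (left) and of mt-Rnr1 to mt-Rnr2 (right) in FPKM for each of 18 libraries, with the mean of 3 as a line. KO Reserve stands above all others on the left at 0.643 to 1.08, and the 6 reserve libraries stand above the other 12 on the right.

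WT Reserve against WT and KO Reserve against KO Ctrl set the reserve label against the other libraries within a genotype. These contrasts share WT Reserve or KO Reserve with the one above, so their values are given side by side and are no independent support. In WT Reserve 6 of 12 coding genes were higher and 0 lower, where 58.7% of all genes were called, 30.8% higher and 27.9% lower. The 6 were mt-Atp8 (0.59), mt-Co3 (0.48), mt-Atp6 (0.46), mt-Cytb (0.39), mt-Co1 (0.39) and mt-Nd5 (0.34). mt-Co3 stood on 18 to 24 fragments in WT Reserve and 13 to 18 in WT. mt-Nd1 was at -0.21 ± 0.11 (limma, adjusted p = 0.113), mt-Nd2 at 0.02 and mt-Nd4 at 0.06. Of the 13 coding genes, 8 had every WT Reserve library above every WT library and 1, mt-Nd1, had every one below, against 33.6% and 30.4% of all genes tested, or 64.0% in either direction. The 8 include the very low mt-Co2, which did not pass the filter. It stood on 3 to 6 fragments per library in WT Reserve and 4 in WT. With quantile normalization only mt-Atp6 was called higher and mt-Nd1 was called lower (-0.48, limma, adjusted p = 0.000453). The call of mt-Atp6 was lost without WT Reserve replicate 1 (limma, adjusted p = 0.0794), WT Reserve replicate 2 (0.0863), WT replicate 1 (0.0722) or WT replicate 3 (0.0574).

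In KO Reserve against KO Ctrl 6 of 12 coding genes were higher and 0 lower, where 65.3% of all genes were called, 24.8% higher and 40.4% lower. The 6 were mt-Atp6 (1.02), mt-Nd6 (0.97), mt-Nd3 (0.90), mt-Nd2 (0.86), mt-Nd4 (0.69) and mt-Nd5 (0.25). Groups did not overlap for mt-Nd2, mt-Atp6, mt-Nd4 and mt-Nd6, all higher, a pattern of 25.9% of all genes tested, and 67.0% did not overlap in either direction. Median-ratio scaling raised the count to 10, and quantile normalization gave 5 higher and 2 lower, mt-Co1 (-0.72) and mt-Cytb (-0.42). It ended the calls of mt-Nd2 (0.18), mt-Nd4 (0.02) and mt-Nd5 (-0.27), and mt-Nd6 was called at 0.27. The call of mt-Nd5 was lost without KO Reserve replicate 2 (limma, adjusted p = 0.121), KO Reserve replicate 3 (0.0552) or KO Ctrl replicate 3 (0.257), and that of mt-Nd3 without KO Ctrl replicate 3 (0.0526).

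Among ribosomal and coding RNAs, the 12S ribosomal RNA had the largest log2 fold change in both contrasts. mt-Rnr1 (ENSMUSG00000064337, chrMT:70-1024, plus strand) was at 2502, 4717 and 2407 FPKM in WT Reserve, against 718, 911 and 853 in WT. All 3 reserve libraries lay above WT, and the log2 fold change was 1.89 ± 0.29 (limma, adjusted p = 8.58e-05). In KO Reserve against KO Ctrl, where KO Ctrl had 828, 817 and 799 FPKM, it was 2.82 ± 0.29 (limma, adjusted p = 1.44e-06). mt-Rnr2 was called in KO Reserve (1.04 ± 0.18, limma, adjusted p = 0.000121; 0.57 and still called with quantile normalization) and not in WT Reserve (0.35 ± 0.18, limma, adjusted p = 0.109), and the difference between these effects did not pass (0.69, limma, adjusted p = 0.0545). The ratio of mt-Rnr1 to mt-Rnr2 was 1.11 to 1.36 in KO Reserve and 1.01 to 1.46 in WT Reserve, which overlap, against 0.320 to 0.411 in the other 12 libraries.

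Transfer RNAs differed in direction. In WT Reserve against WT 5 of 22 were lower and 0 higher, where 27.9% of all genes were called lower and 30.8% higher. Those lower were mt-Tl2 (-3.72), mt-Tv for valine (-2.11), mt-Tl1 for leucine (-1.16), mt-Tw (-1.04) and mt-Tt (-0.94), all on the plus strand. The 2 largest values rest on few fragments per library, not scaled for depth. mt-Tl2 had 1 to 2 in WT Reserve and 19 to 37 in WT, and mt-Tv had 1 to 7 and 13 to 31. mt-Tw had 10 to 25 and 45 to 71. In KO Reserve against KO Ctrl 2 of 22 were lower and 5 higher, where 40.4% of all genes were called lower and 24.8% higher. All these counts lie below the shares of all genes. mt-Tl2 (-1.79) and mt-Tl1 (-1.25) were lower there, and mt-Te (0.94), mt-Ti (0.89), mt-Tq (0.67), mt-Tn (0.57) and mt-Tc (0.53) were higher. With quantile normalization the calls of the 5 higher ones were lost, with mt-Te at 0.00, the value of an unchanged rank. The other 4 were at 0.36 to 0.48, while mt-Tl2 and mt-Tl1 stayed called. mt-Tl1, which lies between mt-Rnr2 and mt-Nd1, had 41 to 46 fragments per library in KO Reserve and 31 to 44 in WT Reserve, against 106 to 173 in the other 12 libraries. These fragments are not scaled for depth, which differed. In FPKM, which is scaled, mt-Tl1 was at 3088 to 4924 in KO Reserve and 3001 to 4002 in WT Reserve, against 6833 to 12566.5 in the other 12.

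Whether the genotype difference depended on the reserve label was tested as an interaction, the KO effect in reserve libraries minus that in the others. The interaction was called for mt-Nd2 (0.84 ± 0.19, limma, adjusted p = 0.00337), mt-Nd6 (0.74 ± 0.20, 0.00933) and mt-Nd4 (0.63 ± 0.19, 0.0183), where 30.9% of all genes were called, 8.03% higher and 22.9% lower. It was called for 0 coding genes in the other direction, although mt-Atp8 (-0.51), mt-Co1 (-0.46) and mt-Cytb (-0.36) were below 0. With quantile normalization none of mt-Nd2, mt-Nd6 and mt-Nd4 was called, and mt-Co1 (-0.70) and mt-Cytb (-0.61) were called lower. The count was 5 without KO Ctrl replicate 1, all higher, and 5 without KO Ctrl replicate 3, 2 higher and 3 lower. The call of mt-Nd4 was lost without KO Reserve replicate 3 (limma, adjusted p = 0.0523) or KO Ctrl replicate 3 (0.0529). Among transfer RNAs 6 interactions were called, all higher, of which quantile normalization ended those of mt-Ti (1.04) and mt-Te, whose value turned to -0.21.

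Outside the reserve set, KO Ctrl against WT gave 0 called coding genes, where 2.65% of all genes were called, 1.53% higher and 1.12% lower. With limma 4 of 12 had an unadjusted p below 0.05, as did 2517 of all 14285 genes tested. Of the 12 log2 fold changes 11 were above 0, with a median of 0.25, and 8015 of all genes were above 0. mt-Cytb was at 4390, 3789 and 2971 FPKM in KO Ctrl, against 2961, 2978 and 2981 in WT (0.30 ± 0.10, limma, adjusted p = 0.128). The groups overlapped through KO Ctrl replicate 3, and all 13 coding genes overlapped in this comparison, whereas 27.3% of all genes tested did not. Without KO Ctrl replicate 3 limma called 5 coding genes higher.

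Wnt5a against WT, which shares the WT libraries with that comparison, also gave 0 called coding genes, where 0.0490% of all genes were called, 0.0420% higher and 0.00700% lower. With limma 5 of 12 had an unadjusted p below 0.05, as did 1126 of all 14285 genes tested. The median log2 fold change of the 12 was 0.35. mt-Cytb was at 4254, 3615 and 3786 FPKM in Wnt5a, and mt-Co1 at 2395, 2074 and 2096 FPKM in Wnt5a against 1613, 1596 and 1550.5 in WT. Both were higher in each Wnt5a library (mt-Cytb 0.38 ± 0.10, mt-Co1 0.46 ± 0.13, limma, adjusted p = 0.398 for each). Of the 13 coding genes, 8 had every Wnt5a library above every WT library, a pattern of 11.7% of all genes tested. The very low mt-Co2 had every one below, a pattern of 9.71%.

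KO Wnt5a against KO Ctrl, the comparison that the rescue label names, gave 0 called coding genes, where 1.02% of all genes were called, 0.315% higher and 0.707% lower. All 12 log2 fold changes were below 0, with a median of -0.37, as were 5909 of all 14285 genes tested. Limma gave 7 of the 12 an unadjusted p below 0.05, and 1525 of all genes. mt-Cytb was at 2833, 2901 and 2724 FPKM in KO Wnt5a, below each KO Ctrl library (-0.38 ± 0.10, limma, adjusted p = 0.106). mt-Nd5 was at 462, 450 and 446 FPKM in KO Wnt5a, against 684, 638 and 484 in KO Ctrl (-0.39 ± 0.10, limma, adjusted p = 0.0706). Of the 13 coding genes, mt-Nd2, mt-Nd4, mt-Nd5 and mt-Cytb had every KO Wnt5a library below every KO Ctrl library, a pattern of 6.76% of all genes tested, and 10.1% had the opposite one. Without KO Ctrl replicate 3, the lowest of its group for mt-Cytb and mt-Nd5, limma called 4 coding genes lower.

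KO Wnt5a against Wnt5a, the genotypes under the same label, gave 2 coding genes lower and 0 higher, where 3.23% of all genes were called, 1.41% higher and 1.82% lower. mt-Nd5 was at 661, 572 and 611 FPKM in Wnt5a, above each KO Wnt5a library given above, and its log2 fold change was -0.44 ± 0.10 (limma, adjusted p = 0.0219). mt-Cytb was called at -0.46 ± 0.10 (limma, adjusted p = 0.0221), and mt-Co1 (-0.46 ± 0.13) and mt-Nd1 (-0.41 ± 0.11) missed the threshold at adjusted p = 0.0573 and 0.0579 with limma. All 12 were below 0, as were 5673 of all 14285 genes tested. Of the 13 coding genes, 10 had every KO Wnt5a library below every Wnt5a library, a pattern of 10.2% of all genes tested. Both calls were lost without KO Wnt5a replicate 1, 2 or 3 and without Wnt5a replicate 1 or 3, with adjusted p from 0.0509 to 0.108 in limma. mt-Tm, the methionine transfer RNA, was lower too (-1.18 ± 0.28, limma, adjusted p = 0.0376), with 28, 17 and 36 fragments in KO Wnt5a and 47, 51 and 53 in Wnt5a. This call was lost with quantile normalization (-0.85, limma, adjusted p = 0.0672).

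The interaction of the Wnt5a label with genotype is the Wnt5a effect in knockout minus that in wild type. It was below 0 for all 12 coding genes, with a median of -0.67, and for 6740 of all 14285 genes tested. It was called for 0 of the 12 with limma, where 0.0700% of all genes were called, 0.0210% higher and 0.0490% lower. Limma's unadjusted p was below 0.05 for 9 of the 12 and for 863 of all genes. The smallest adjusted p was 0.0708, for mt-Nd5 (-0.74 ± 0.14) and mt-Cytb (-0.76 ± 0.15). Limma called 5 lower without KO Ctrl replicate 3 and 1 lower without Wnt5a replicate 2. In fragments, the coding genes made up 1.02%, 1.02% and 0.959% of the KO Wnt5a libraries and 1.54%, 1.30% and 1.01% of the KO Ctrl libraries. They made up 1.47%, 1.27% and 1.34% of the Wnt5a libraries and 1.04%, 1.06% and 1.04% of the WT libraries. Platelet and megakaryocyte marker sums also differed between these groups, at 7374 to 10710 FPKM in KO Wnt5a, 11580 to 19780 in KO Ctrl, 12690 to 28700 in Wnt5a and 21030 to 30960 in WT, and their part was not tested.

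Nuclear genes of the same complexes were counted in the same fits. Of 77 nuclear subunit genes of oxidative phosphorylation, 61 were higher and 1 lower in KO Reserve against WT Reserve, where 12.0% of all genes were called higher and 29.3% lower. Their median log2 fold change was 0.54, against -0.17 over all genes tested. Among them were Cox7c and Cox6a1 of complex IV (0.94 ± 0.10 and 0.80 ± 0.10), Ndufb9 of complex I (0.78 ± 0.09) and Atp5g1 of the ATP synthase (0.68 ± 0.08; limma, adjusted p at most 9.8e-06 for the 4). By complex, 30 of 36 nuclear genes were higher in complex I, 7 of 9 in complex III, 10 of 11 in complex IV and 12 of 17 in complex V, and 2 of 4 in complex II, which has no mitochondrially encoded subunit. For the mitochondrially encoded coding genes that passed the filter, 5 of 7 were higher in complex I, 0 of 1 in complex III, 0 of 2 in complex IV and 1 of 2 in complex V. In WT Reserve against WT 37 of the 77 were higher and 8 lower, where 30.8% and 27.9% of all genes were. In KO Reserve against KO Ctrl 68 were higher and 3 lower, where 24.8% and 40.4% were. In KO Ctrl against WT, Wnt5a against WT, KO Wnt5a against KO Ctrl and KO Wnt5a against Wnt5a, 0 of the 77 were called with limma, with medians from -0.14 to 0.04. Of all genes 2.65%, 0.0490%, 1.02% and 3.23% were called there.

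Other nuclear lists hold genes for making and using mitochondrial RNA, and are read against the 12.0% of all genes called higher and 29.3% called lower in KO Reserve against WT Reserve. The counts for transcription and RNA processing lie near or below those shares. Of 77 genes for proteins of the mitochondrial ribosome, 39 were higher and 8 lower in KO Reserve against WT Reserve, with a median of 0.26. Of 22 genes for mitochondrial transcription and replication 3 were higher and 4 lower: Pprc1, a coactivator of mitochondrial biogenesis, was higher (0.86 ± 0.15), and Tefm, the elongation factor of the mitochondrial RNA polymerase, was lower (-0.66 ± 0.16; limma, adjusted p = 0.000302 and 0.0037). Mterf2, a factor of the mitochondrial transcription termination family (-0.82), and Mgme1, a mitochondrial DNA exonuclease (-0.43), were also called lower. Of 29 genes for mitochondrial RNA processing and stability 3 were higher and 7 lower. Slirp, which with Lrpprc stabilises mitochondrial messenger RNAs, was higher (0.64 ± 0.09, limma, adjusted p = 3.99e-05), as were the exonuclease Rexo2 (0.49) and the helicase Dhx30 (0.74), while the pentatricopeptide repeat protein gene Ptcd2 was lower (-0.82). Of 39 genes for assembly of the complexes 10 were higher and 6 lower, with Cox17, a copper carrier for complex IV, at 1.28 ± 0.12 (limma, adjusted p = 1.03e-06).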

How the data were processed

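The deposited table holds FPKM values of 44349 Ensembl genes in 18 libraries, made by the authors with CASAVA 1.8.2, TopHat2 2.0.10 and Cufflinks on mm10, per the submitters' processing notes. RNA was amplified with the SMARTer ultra low input v3 kit and made into Nextera libraries, per the labels' protocols, which keep no strand. The annotation release and the handling of reads with several matches are not given in the sources used here. Groups were taken from the labels. The members and gene lists were chosen with earlier results of these data known.

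The 14285 genes that reached 1 FPKM in 3 or more of the 18 libraries were tested with limma 3.58.1 (R 4.3.3) on log2(FPKM + 1). The model had a mean per group over all 18 libraries and moderated variances with a trend and robust estimation. P-values were adjusted by Benjamini-Hochberg over all genes tested, with a threshold of 0.05, and the fit was tested on simulated data. Coding and ribosomal members are named with values and transfer RNAs where called; outside the members, nuclear copies and at most 4 called genes with the smallest p per list are named. Of the gene IDs, 43938 matched GENCODE M21 and 411 did not, and 33 values in 16 genes were missing. Fragments were recovered from the steps between FPKM values, assuming a fragment length of 200 ± 80 bases and a shortest fragment of 49. Between 94.24% and 96.06% of values implying 1 to 10 fragments were whole within 0.05, where chance gives 10%. Nuclear copies were found with BLAST 2.17.0 among annotated transcripts. Alternatives were a pseudocount of 0.1, quantile or median-ratio scaling, genes of at least 300 bases, no filter, other variance settings, a replicate block and each library left out.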

Additional observations from a re-analysis of the deposited data

Results flagged for a closer look

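The genotype effect differed between reserve and other libraries for 9 of 36 members tested, by the interaction test in limma with adjusted p below 0.05. Of all genes tested 30.9% were called, 8.03% higher and 22.9% lower. The members' share lies below the 30.9% called in either direction. All 9 were higher, and that share lies above the 8.03% of all genes called higher. The effect in reserve libraries minus that in the others, on the log2 scale, was 0.8412 for mt-Nd2, 0.7397 for mt-Nd6 and 0.6296 for mt-Nd4. Among transfer RNAs it was 1.2878 for mt-Tw, 1.2337 for mt-Ti, 1.0741 for mt-Tt, 0.9152 for mt-Tn, 0.8845 for mt-Te and 0.8489 for mt-Tq. With quantile normalization the calls of mt-Nd2, mt-Nd6, mt-Nd4, mt-Ti and mt-Te were lost, and mt-Te was at -0.21. The reserve set also has its own header prefix and other marker sums, and their part in these differences was not tested.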

How the results depend on the processing

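Values are numbers of coding genes called, or median log2 fold changes over the coding genes. Quantile normalization gave 2 calls in WT Reserve against WT (median 0.059), 0 in KO Wnt5a against Wnt5a, a median of 0.10 in KO Reserve against KO Ctrl and of 0.25 in the KO interaction with the reserve label. It turned mt-Co1 in WT Reserve against WT to -0.017 and mt-Nd5 in KO Reserve against KO Ctrl to -0.27, neither past the threshold. In KO Reserve against WT Reserve it kept the 6 calls of coding genes, with mt-Nd2 at 0.63, mt-Nd6 at 0.61 and mt-Nd4 at 0.41, and added 2 lower. Median-ratio scaling moved the median over all genes in KO Reserve against WT Reserve to 0.00. It gave medians of 0.70 there, 0.63 in KO Reserve against KO Ctrl (10 calls) and 0.68 in the KO interaction (5 calls). A pseudocount of 0.1 gave a median of 0.59 in KO Reserve against KO Ctrl. KO Wnt5a against Wnt5a had 0 calls with no filter, 5 with genes of at least 300 bases and 7 with its own libraries. The 300-base limit gave 1 call in KO Wnt5a against KO Ctrl and 2 in the Wnt5a interaction with genotype. With a replicate block the KO interaction had 6 calls (3 higher, 3 lower) and the Wnt5a interaction 2. Averaged over all groups, same-numbered libraries did not deviate together (mean correlations 0.0035 to 0.0037, single pairs from -0.0917 to 0.1). Such an average cannot exclude a pairing between some of the groups. Where a setting changed a call, the cause was not tested.

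Leaving out each library in turn, calls ranged from 0 to 5 in KO Ctrl against WT, 0 to 3 in KO Wnt5a against Wnt5a, 0 to 4 in KO Wnt5a against KO Ctrl, 0 to 5 in the Wnt5a interaction, 2 to 5 in the KO interaction, 5 to 6 in KO Reserve against WT Reserve, 5 to 6 in WT Reserve against WT and 4 to 8 in KO Reserve against KO Ctrl. Medians ranged from -0.53 to -0.25 in KO Wnt5a against KO Ctrl, -0.84 to -0.50 in the Wnt5a interaction and 0.18 to 0.59 in the KO interaction. For single genes, 133 such values kept direction and side of the threshold and 23 lost the call. Depth limits mt-Co2, mt-Co3, mt-Nd4l and most transfer RNAs.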

Other observations

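mt-Ts1 had 2762 implied fragments in KO Reserve replicate 1 and 2817 in KO Ctrl replicate 1, against 5951 to 20450 in the other 16 libraries. These were also the libraries with the lowest implied depth, 23250000 and 24950000 fragments, where the others had 25710000 to 46530000. Per length and depth mt-Ts1 was lowest in them too, at 507445 and 482199 FPKM, against 644816 FPKM or more in the others. WT Reserve replicate 3, at 25710000 fragments, had 7814 fragments of mt-Ts1.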
